A study of Arabidopsis thaliana with 18 samples.

Results

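Water in a plant root moves through xylem vessels, files of cells that build a thick secondary wall of cellulose, xylan and lignin inside the primary wall and then die, leaving a hollow tube. The programme is set off by NAC transcription factors of the VND family, passed on by the MYB factors MYB46 and MYB83, and carried out by wall synthesis enzymes and by proteases and nucleases that clear the dying cell. Brassinosteroids, steroid hormones of plants, and auxin are both known to influence xylem formation, and thermospermine, a polyamine made in xylem precursors, restrains it.

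The 37 genes described here are a list of loci for this programme, out of 33602 loci in each count table. They were chosen with earlier results of these data known. They comprise 14 regulators, 18 genes of secondary wall synthesis, 4 genes of cell death and the thermospermine synthase ACL5 (AT5G19530). The regulators are the NAC switches VND1 (AT2G18060), VND2 (AT4G36160), VND3 (AT5G66300), VND4 (AT1G12260), VND5 (AT1G62700), VND6 (AT5G62380), VND7 (AT1G71930), NST1 (AT2G46770) and SND1 (AT1G32770), the MYB switches MYB46 (AT5G12870) and MYB83 (AT3G08500), and XND1 (AT5G64530), LBD15 (AT2G40470) and LBD30 (AT4G00220). Wall synthesis is represented by CESA4 (AT5G44030), CESA7 (AT5G17420), CESA8 (AT4G18780), COBL4 (AT5G15630), CTL2 (AT3G16920), TED6 (AT1G43790) and TED7 (AT5G48920) for cellulose, IRX9 (AT2G37090), IRX10 (AT1G27440), IRX8 (AT5G54690), FRA8 (AT2G28110), IRX15 (AT3G50220), IRX15L (AT5G67210) and GUX1 (AT3G18660) for xylan, the laccases LAC4 (AT2G38080) and LAC17 (AT5G60020), and the fasciclin-like proteins FLA11 (AT5G03170) and FLA12 (AT5G60490). Cell death is represented by XCP1 (AT4G35350), XCP2 (AT1G20850), MC9 (AT5G04200) and BFN1 (AT1G11190). Transcripts were counted by RNA-seq in 18 libraries from the tip section of primary roots of 7-day-old Arabidopsis thaliana seedlings, all in the Col-0 background. The 9 groups had 2 libraries each. At 101 bp, 4 groups were Col-0 after 4 h with a mock solution, with brassinolide (BL, a brassinosteroid) at 100 nM, with the auxin indole-3-acetic acid (IAA) at 5 µM, or with the pair at those doses. Also read at 101 bp were bri1-116, which carries a defective copy of the brassinosteroid receptor BRI1, and bri1-116;bzr1-1D, which adds a dominant, stabilised form of BZR1, a transcription factor that brassinosteroids activate; neither mutant was treated. Untreated wild-type Col-0, untreated dwf4 (a mutant of DWF4, an enzyme of brassinosteroid synthesis; the labels name no allele) and dwf4 given 100 nM BL for 4 h were read at 36 bp.

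Limits of the groups bear on the values below. The bri1-116 lines were untreated while their Col-0 controls had the mock solution, so genotype cannot be told apart from handling against those controls. The 36 bp set has no mock group, so BL cannot be told apart from handling in comparisons with BL-treated dwf4. In dwf4 against wild type, and in bri1-116;bzr1-1D against bri1-116, both groups were untreated. The bri1-116;bzr1-1D line has no bzr1-1D line with a normal receptor beside it. Because the tissue was a whole root section, fewer xylem cells and less RNA per xylem cell cannot be told apart. Nothing in the labels ties the 2 libraries of a group to separate cultures, so p-values measure only the spread between these libraries.

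Gene counts per library totalled 11225390 to 36431707 in the 101 bp set and 11764200 to 15647439 in the 36 bp set. The level that 3 counts give was 0.0837 to 0.270 CPM (gene counts per 1e6 of the TMM-scaled library size), which is the floor for a gene with no counts and covers counting error only. BRI1 stood at 142 and 135 CPM in bri1-116 against 114 and 129 in Col-0 mock, and DWF4 at 47.6 and 48.5 CPM in dwf4 against 49.8 and 51.9 in wild type, so neither transcript count checks the genotype labels. Every one of the 37 loci was found in all 18 tables, and 35 passed the filter on low counts in both read-length sets.

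Of 5 motifs counted upstream of these genes, the sequences that follow show the one whose share was the largest multiple of that of all genes, a match to the tracheary-element-regulating cis-element (TERE, searched as CTTNAAAGCNA on both strands). Within 300 bases upstream of the annotated start, 5 of the 37 genes (13.5%) held one, against 118 of 27443 protein-coding genes (0.43%). TERE was first described from genes of this kind, so the excess is a description of the list and not an independent result. The 30-base stretches, 5′ to 3′ on the gene's strand with the match in capitals (coordinates and starts from RefSeq TAIR10.1), belong to LBD30, CESA4, FLA11, XCP1 and MC9, the first on the strand opposite to the gene.
LBD30 (chr4:89810-89839): ctccatcgcgTTGCTTTGAAGtcttttttt
CESA4 (chr5:17714360-17714389): tacataataaCTTGAAAGCTActctaagtt
FLA11 (chr5:753842-753871): caaactctccCTTCAAAGCAAtgtctctcc
XCP1 (chr4:16810397-16810426): attgtctttgCTTCAAAGCCAatcctatga
MC9 (chr5:1153667-1153696): tgttccatagCTTAAAAGCAAactagactt
Those of CESA4 and FLA11 also lie in an annotated exon of a neighbouring gene.

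Other features were counted in the same windows. The MYB46-responsive element, read as ACC, then A or T, then A, then A or C, then C or T, occurred in 17 of 37 windows (45.9%) and in 11 of the 18 wall synthesis genes (61.1%), against 33.9% of all protein-coding genes. TGTCTC, the classic auxin response element, occurred in 11 of 37 (29.7%) against 13% of all, and the brassinosteroid response element of BZR1 (CGTGTG or CGTGCG) in 4 of 37 (10.8%) against 7.64%. The secondary wall NAC-binding element SNBE, a degenerate motif, was in 22 of 37 (59.5%) against 48.7%. Leaving SNBE aside, no pair of different motifs overlapped, while an SNBE match overlapped another motif in 5 of 37 windows, TERE in LBD30, FLA11 and XCP1, the MYB46 element in IRX10 and the BZR1 element in MYB83. A match is only a string of letters in the window and shows no binding. Windows of 300 bases of 2 genes that the results turn on, with the MYB46 element and TERE in capitals, read as follows: MC9 and FLA12 (the wall gene lowest relative to its control in both brassinosteroid mutants).
MC9 (chr5:1153440-1153739, plus strand): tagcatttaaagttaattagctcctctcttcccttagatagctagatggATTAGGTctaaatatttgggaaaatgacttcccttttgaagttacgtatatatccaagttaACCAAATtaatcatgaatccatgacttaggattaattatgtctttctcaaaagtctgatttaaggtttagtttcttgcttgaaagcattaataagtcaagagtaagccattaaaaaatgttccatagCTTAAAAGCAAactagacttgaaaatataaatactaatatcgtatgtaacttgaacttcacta
FLA12 (chr5:24326828-24327127, minus strand): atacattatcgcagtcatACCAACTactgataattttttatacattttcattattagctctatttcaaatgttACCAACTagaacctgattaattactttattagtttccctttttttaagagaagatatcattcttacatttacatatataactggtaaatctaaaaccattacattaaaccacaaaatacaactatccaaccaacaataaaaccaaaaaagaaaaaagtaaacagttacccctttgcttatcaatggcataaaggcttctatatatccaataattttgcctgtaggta

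Per length of transcript, the protease genes were the most abundant of the list in wild-type roots. In the Col-0 mock libraries XCP1 averaged 123 RPKM (CPM per kilobase of exon; SD 2.02, n = 2) and XCP2 117 RPKM (SD 3.26, n = 2), papain-like proteases that digest the contents of the dying vessel. Next came TED6, a membrane protein that binds the secondary wall cellulose synthase, at 60.5 RPKM (SD 5.37, n = 2), and MC9, a metacaspase, at 41.9 RPKM (SD 3.80, n = 2). The libraries of XCP1 lay above those of XCP2 in both wild-type groups.
Most regulators lay low in the order, although LBD15 (6.92 RPKM, SD 0.354, n = 2) and VND4, the highest VND gene (5.86 RPKM, SD 0.569, n = 2), stood above the wall genes IRX15 (5.60 RPKM, SD 0.181, n = 2) and GUX1 (4.74 RPKM, SD 0.341, n = 2), and VND1 was lowest of those tested at 0.824 RPKM (SD 0.141, n = 2). VND6 and VND7, the switches named for metaxylem and protoxylem vessels, stood at 1.89 (SD 0.0581) and 1.86 RPKM (SD 0.485), which did not differ beyond their spread. NST1 and SND1, the NAC switches known from fibres of the stem, could not be tested: NST1 had 0 to 8 counts per library and SND1 0 to 3. All 10 counts of SND1 were in the libraries that had received IAA, 3 and 3 with IAA alone and 3 and 1 with both hormones, at or below the 3-count floor.

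**Figure D1:**
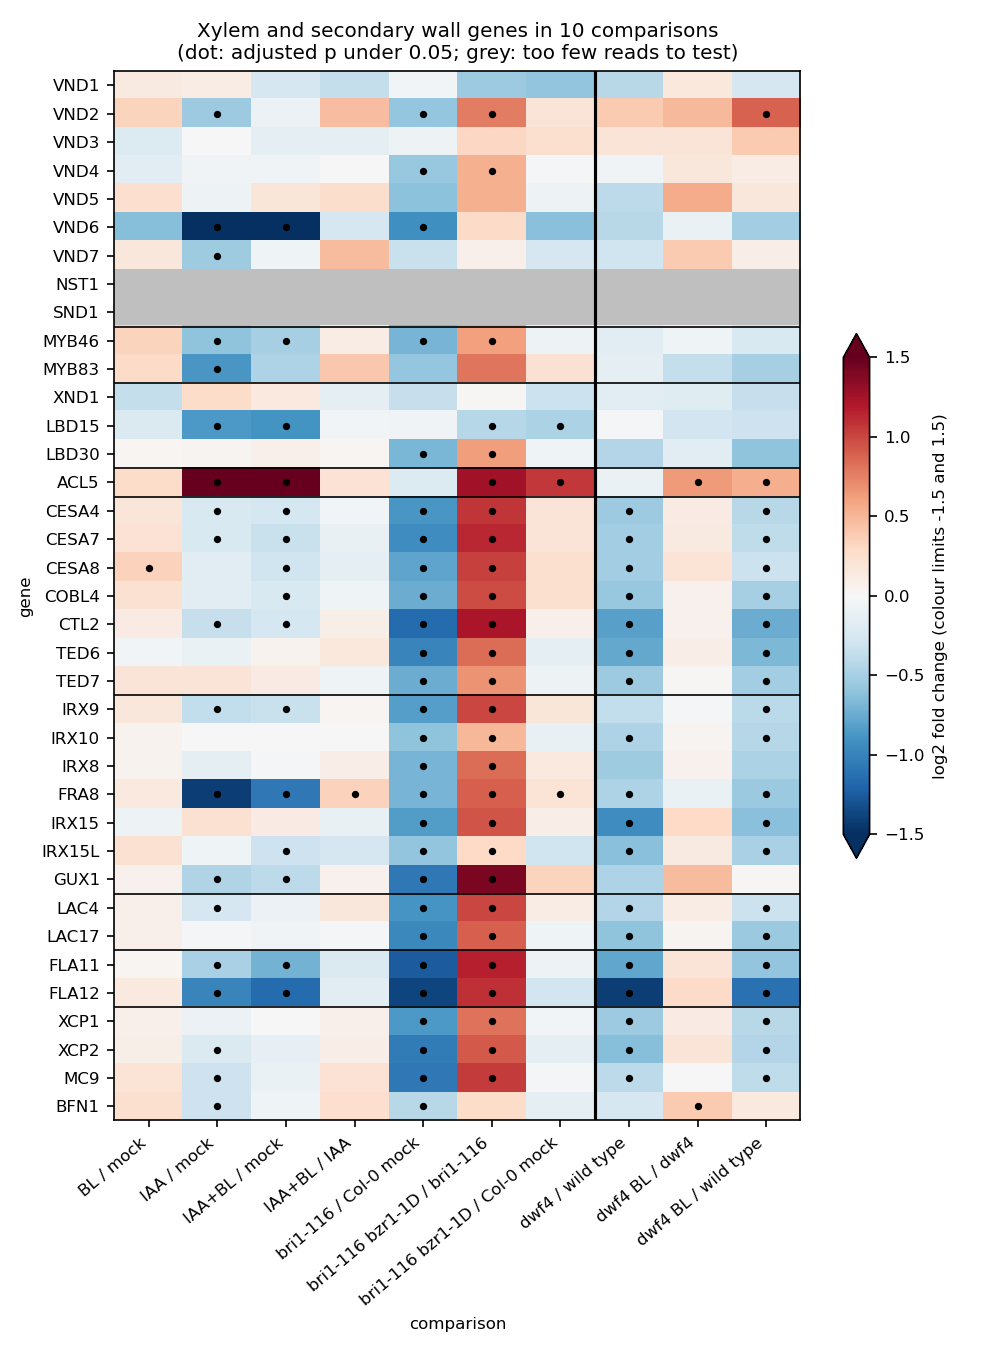
Log2 fold change (colour) of each of the 37 genes (rows, grouped by role) in 10 comparisons (columns, 101 bp set left of the thick line, 36 bp set right of it), with dots for an adjusted p under 0.05 and grey for the 2 genes with too few reads. The wall synthesis rows are blue throughout in bri1-116, red throughout when bzr1-1D was added to it, and mostly paler blue in dwf4.

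In the receptor mutant the whole wall-building set was lower. All 18 wall synthesis genes and all 4 cell death genes fell in bri1-116 against Col-0 mock, while 5 of the 12 tested regulators did, and no member rose. The median wall synthesis gene stood at 55.2% of its mock level, between 38.3% for FLA12 and 66.2% for IRX15L, and the median cell death gene at 51.8%. In all, 27 of 35 members were called lower, against 19.4% of all tested genes called lower, 16.7% called higher and 36.1% called in either direction (quasi-likelihood F test of edgeR, Benjamini-Hochberg over 20644 genes, as for every adjusted p of the 101 bp set below; ± gives the standard error of a log2 fold change). The median log2 fold change was -0.74 over the 35 members and 0.0093 over all tested genes.

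The 3 catalytic subunits of the secondary wall cellulose synthase were lower together. CESA4 measured 65.4 and 77.7 CPM in the mock libraries, 39.8 and 38.4 in bri1-116 and 81.7 and 82.7 in the double mutant. CESA7 went from 47.5 and 56.7 CPM in mock to 26.4 and 28.1 in bri1-116 and stood at 58.6 and 61.2 in the double mutant. CESA8 went from 32.7 and 38.3 CPM to 20.7 and 20.4 and stood at 45.7 and 37.7. Both bri1-116 libraries lay below both mock libraries for each subunit, and the double mutant libraries lay above the receptor mutant's. The log2 fold changes in bri1-116 were -0.88 ± 0.077 (adjusted p = 2.33e-07) for CESA4, -0.94 ± 0.088 (adjusted p = 4.52e-07) for CESA7 and -0.79 ± 0.094 (adjusted p = 6.00e-06) for CESA8. As shares of their summed CPM, CESA4 took 42.1% to 46.7%, CESA7 30.4% to 33.7% and CESA8 20.8% to 26.4% over all 18 libraries. Part of the CESA8 count is uncertain, since 14.4% of its exon length overlaps a gene on the other strand and the strand setting of the counting is not given.

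The other cellulose genes fell with them. CTL2, a chitinase-like protein needed for secondary wall cellulose, went from 51.8 and 53.4 CPM in mock to 23.8 and 23.6 in bri1-116, a log2 fold change of -1.15 ± 0.070 (adjusted p = 5.21e-09). TED6 gave -0.99 ± 0.089 (adjusted p = 2.83e-07), TED7, its relative, -0.74 ± 0.10 (adjusted p = 2.32e-05), and COBL4, a COBRA-like protein of secondary walls, -0.74 ± 0.086 (adjusted p = 4.37e-06).

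All 7 listed genes for xylan, the main matrix polymer of these walls, fell. Among the backbone genes IRX9 gave -0.83 ± 0.086 (adjusted p = 1.31e-06) and IRX10 -0.60 ± 0.089 (adjusted p = 5.10e-05). IRX8 and FRA8, which are needed for the sequence at the reducing end of the chain, gave -0.69 ± 0.11 (adjusted p = 8.42e-05) and -0.69 ± 0.064 (adjusted p = 3.84e-07). GUX1, which adds glucuronic acid side groups, fell most of the 7, from 10.6 and 11.8 CPM to 5.12 and 5.51 (-1.07 ± 0.15, adjusted p = 4.23e-05), and IRX15 (-0.84 ± 0.12, adjusted p = 2.42e-05) and IRX15L (-0.59 ± 0.092, adjusted p = 8.23e-05), which affect chain length, fell as well.

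The laccases, which polymerise lignin, and the fasciclin-like proteins of the wall surface fell too. LAC4 measured 62.0 and 65.5 CPM in mock and 33.8 and 35.0 in bri1-116 (-0.89 ± 0.058, adjusted p = 9.72e-09), and LAC17 went from 45.0 and 49.3 to 26.0 and 22.5 (-0.97 ± 0.073, adjusted p = 4.52e-08), with 24.2% of LAC17's exon length shared with a gene on the other strand. FLA11 gave -1.25 ± 0.076 (adjusted p = 4.90e-09). FLA12 had the deepest fall of the 35 tested genes here, from 13.6 and 13.4 CPM in mock to 5.16 and 5.20 in bri1-116, a log2 fold change of -1.38 ± 0.12 (adjusted p = 1.62e-07), and came back to 12.3 and 9.62 CPM in the double mutant.

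Cell death genes followed the wall genes. XCP2 went from 165 and 159 CPM to 79.8 and 76.8 in bri1-116 (-1.05 ± 0.059, adjusted p = 2.36e-09), XCP1 from 175 and 171 to 95.5 and 95.4 (-0.86 ± 0.058, adjusted p = 1.29e-08), and MC9 from 58.0 and 51.0 to 23.4 and 28.3 (-1.07 ± 0.088, adjusted p = 1.04e-07). No bri1-116 library reached a mock library for any of the 3. BFN1, a nuclease of dying cells, fell less, from 12.6 and 11.4 to 8.56 and 9.37 CPM (-0.41 ± 0.12, adjusted p = 0.0104), and DESeq2 gave it an adjusted p of 0.0504; its call was also lost without mock replicate 1 (adjusted p = 0.0842) or bri1-116 replicate 1 (adjusted p = 0.0841).

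**Figure D2:**
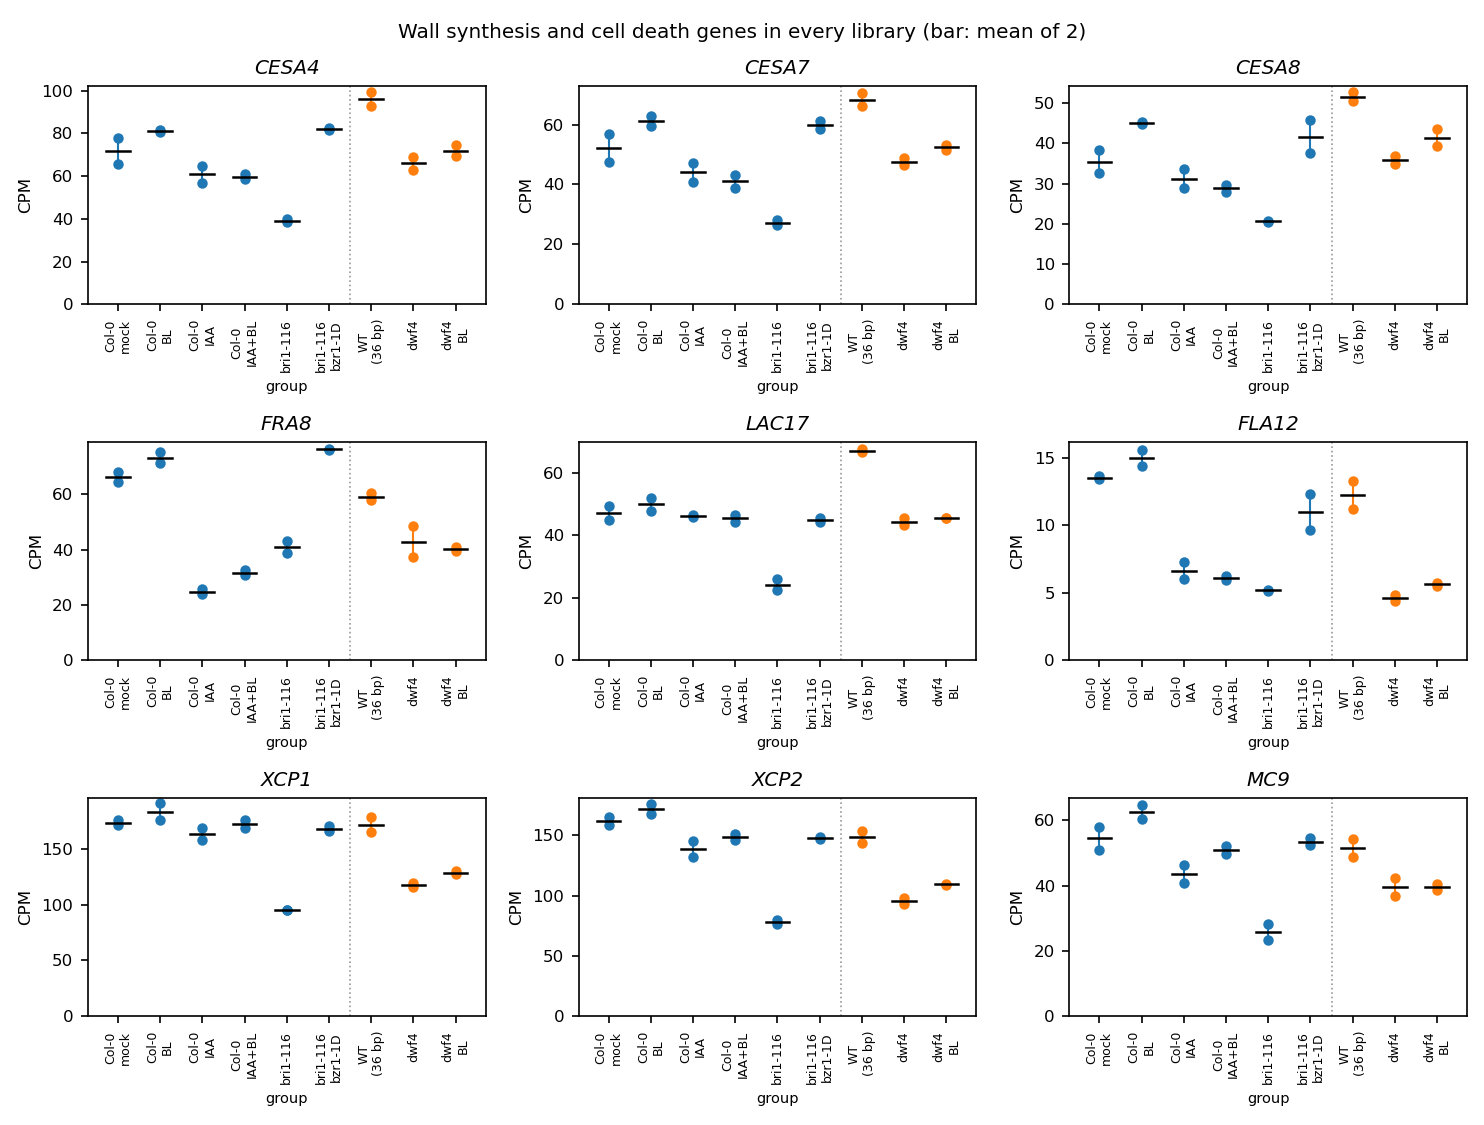
CPM (vertical axes, from 0) of 9 wall synthesis and cell death genes in all 18 libraries (points) of the 9 groups, with a black bar at the mean of 2 libraries, blue for 101 bp and orange for 36 bp reads, which were scaled apart. In each panel the 2 bri1-116 points lie below both Col-0 mock points, and the dwf4 points below both wild-type points.

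Upstream of these genes the picture was uneven. VND2, VND4 and VND6 fell among the 7 VND switches, with -0.58 ± 0.19 (adjusted p = 0.0253), -0.57 ± 0.11 (adjusted p = 0.000657) and -0.92 ± 0.21 (adjusted p = 0.00260). VND6 measured 2.70 and 2.58 CPM in mock and 1.38 and 1.41 in bri1-116. VND1, VND3, VND5 and VND7 did not pass, at -0.047 ± 0.27 (adjusted p = 0.911), -0.074 ± 0.14 (adjusted p = 0.722), -0.61 ± 0.27 (adjusted p = 0.0913) and -0.33 ± 0.20 (adjusted p = 0.212). Of the MYB pair, MYB46 fell from 4.21 and 6.29 to 3.40 and 3.18 CPM (-0.69 ± 0.17, adjusted p = 0.00439) while MYB83, at 0.60 to 2.96 CPM in the 18 libraries, gave -0.58 ± 0.32 (adjusted p = 0.171). LBD30, a LOB-domain factor that can induce vessel-like cells, fell (-0.69 ± 0.19, adjusted p = 0.00938); LBD15, its relative, and XND1, a NAC that blocks xylem differentiation, gave -0.05 ± 0.11 (adjusted p = 0.765) and -0.35 ± 0.20 (adjusted p = 0.193). ACL5 gave -0.21 ± 0.089 (adjusted p = 0.0833). These are the low-count members, and DESeq2 called 2 of the regulators lower where edgeR called 5, with VND2 at an adjusted p of 0.168, VND6 at 0.0643 and LBD30 at 0.0562. Leaving out 1 library gave 3 to 5 regulators, with 3 without mock replicate 1, where VND2 (adjusted p = 0.150) and LBD30 (adjusted p = 0.127) were lost, while MYB46 was lost without mock replicate 2 (adjusted p = 0.152). All 18 wall synthesis calls held in DESeq2 and with any 1 library left out.

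Other genes of the pathway were counted from lists outside the 37, which were also chosen with earlier results of these data known. Of 15 tested secondary wall transcription factors, 13 were lower and 1 higher in bri1-116, with MYB43 at -0.80 ± 0.089 (adjusted p = 2.88e-06) and KNAT7 at -0.57 ± 0.074 (adjusted p = 1.48e-05). Of 13 further wall synthesis genes 10 were lower, led by the laccases LAC11 (-0.87 ± 0.069, adjusted p = 7.05e-08) and LAC2 (-1.39 ± 0.12, adjusted p = 2.88e-07) and by the xylan acetyltransferase ESK1 (-0.89 ± 0.091, adjusted p = 1.08e-06). Among 5 genes of wall patterning and xylem proteases 4 were lower, including MAP70-5, a microtubule-associated protein of vessel walls, at -0.85 ± 0.081 (adjusted p = 5.46e-07). Of the 10 tested genes that specify xylem ahead of the NAC switches, 3 were lower and 1 higher, against 36.1% of all tested genes called in either direction. Their median log2 fold change was -0.015.

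Values of other tissues moved beside these. The summed CPM of 5 endodermis markers was 441 to 469 in mock and 280 to 289 in bri1-116, with 2 of 5 called lower and 1 higher. The 5 phloem markers summed to 74.3 to 74.6 in mock and 73.4 to 74.7 in bri1-116, although 3 of them were called higher and 1 lower. The 3 green shoot markers summed to 13.5 to 17.0 and 25.6 to 30.6, with 2 of 3 called higher, the 3 meristem markers to 42.4 to 47.3 and 53.1 to 57.1, with 1 called higher, and no marker of any of these lists was at 0. Their part in the xylem result was not tested.

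Adding bzr1-1D to the receptor mutant raised the wall-building set. All 18 wall synthesis genes, 3 of the 4 cell death genes, 4 regulators and ACL5 rose in bri1-116;bzr1-1D against bri1-116, and 1 member, LBD15, fell. The 26 members called higher compare with 21.2% of all tested genes called higher, 19.1% called lower and 40.3% called in either direction, and the median log2 fold change was 0.84 over the 35 members and -0.0030 over all genes. This comparison and the one of bri1-116 with Col-0 share the bri1-116 libraries, so opposite signs in the pair are not independent.
Summed over the 18 wall synthesis genes, the libraries held 629 and 654 CPM in mock, 347 and 350 in bri1-116 and 685 and 670 in the double mutant.

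GUX1 had the largest rise, 1.41 ± 0.17 (adjusted p = 5.82e-06), from 5.12 and 5.51 to 13.7 and 14.6 CPM. CTL2 gave 1.23 ± 0.075 (adjusted p = 3.90e-09), FLA11 1.17 ± 0.083 (adjusted p = 2.06e-08) and CESA7 1.13 ± 0.093 (adjusted p = 9.78e-08). The smallest rise was that of IRX15L (0.29 ± 0.11, adjusted p = 0.0389), which DESeq2 did not call (adjusted p = 0.137) and which counts scaled by library totals did not call either (adjusted p = 0.0542). For cell death, MC9 rose by 1.05 ± 0.095 (adjusted p = 2.74e-07), XCP2 by 0.92 ± 0.061 (adjusted p = 9.45e-09) and XCP1 by 0.82 ± 0.059 (adjusted p = 2.40e-08), whereas BFN1 gave 0.27 ± 0.13 (adjusted p = 0.117).

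Fewer of the regulators passed. VND2 (0.77 ± 0.22, adjusted p = 0.00980), VND4 (0.53 ± 0.13, adjusted p = 0.00273), MYB46 (0.62 ± 0.20, adjusted p = 0.0214) and LBD30 (0.62 ± 0.23, adjusted p = 0.0367) rose. VND6, which had fallen in the receptor mutant, measured 1.38 and 2.07 CPM in the double mutant and did not pass (0.28 ± 0.27, adjusted p = 0.446). LBD15 fell from 11.5 and 10.4 to 7.51 and 8.81 CPM (-0.43 ± 0.14, adjusted p = 0.0196). LBD15, VND2, MYB46 and LBD30 did not pass in DESeq2 (adjusted p = 0.0677, 0.062, 0.0658 and 0.123). DESeq2 called 1 regulator where edgeR called 5, and leaving out any 1 of the 4 libraries left 1 to 3.

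Set against Col-0 mock, few of the members differed in the double mutant. Of the 35 members 2 were called higher and 1 lower, against 16.2% of all tested genes called in either direction, 8.03% higher and 8.17% lower. The median wall synthesis gene stood at 108% of its mock level, between 81.2% for IRX15L and 126% for GUX1. CESA4 gave 0.20 ± 0.078 (adjusted p = 0.102), LAC17 -0.069 ± 0.075 (adjusted p = 0.597) and XCP1 -0.045 ± 0.058 (adjusted p = 0.666); a p that misses the threshold does not show that the levels are equal. FRA8 was called higher (0.20 ± 0.065, adjusted p = 0.0430) and LBD15 lower (-0.48 ± 0.14, adjusted p = 0.0242), and neither passed in DESeq2 (adjusted p = 0.141 and 0.0937). The count was 1 without mock replicate 1, 1 without double mutant replicate 1, and ACL5 was the call that held in both.

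ACL5 went past its wild-type level. It measured 35.9 and 43.2 CPM in mock, 36.8 and 32.0 in bri1-116 and 77.1 and 88.6 in the double mutant, whose libraries both lay above the other 4. The rise was 1.26 ± 0.090 (adjusted p = 1.99e-08) over bri1-116 and 1.06 ± 0.089 (adjusted p = 8.71e-07) over Col-0 mock. An overlap of 11.5% of its exon length with a gene on the other strand leaves part of that count uncertain. Beside these values, the 3 green shoot markers summed to 71.5 to 82.2 CPM in the double mutant, with all 3 called higher over bri1-116, and the 3 meristem markers to 37.1 to 38.1 against 53.1 to 57.1 in bri1-116. Their part was not tested.

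Among genes outside the 37, 12 of 13 further wall synthesis genes rose with bzr1-1D, LAC2 most (1.49 ± 0.14, adjusted p = 4.04e-07), as did 4 of 5 patterning and protease genes (MAP70-5 1.03 ± 0.088 (adjusted p = 1.51e-07)). Of 15 secondary wall transcription factors 5 rose and 1 fell. MYB63, a MYB factor of lignin genes, was the one that fell, -0.98 ± 0.15 (adjusted p = 5.42e-05), having measured 8.09 and 9.62 CPM in mock, 13.8 and 17.4 in bri1-116 and 7.51 and 8.36 in the double mutant.

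**Figure D3:**
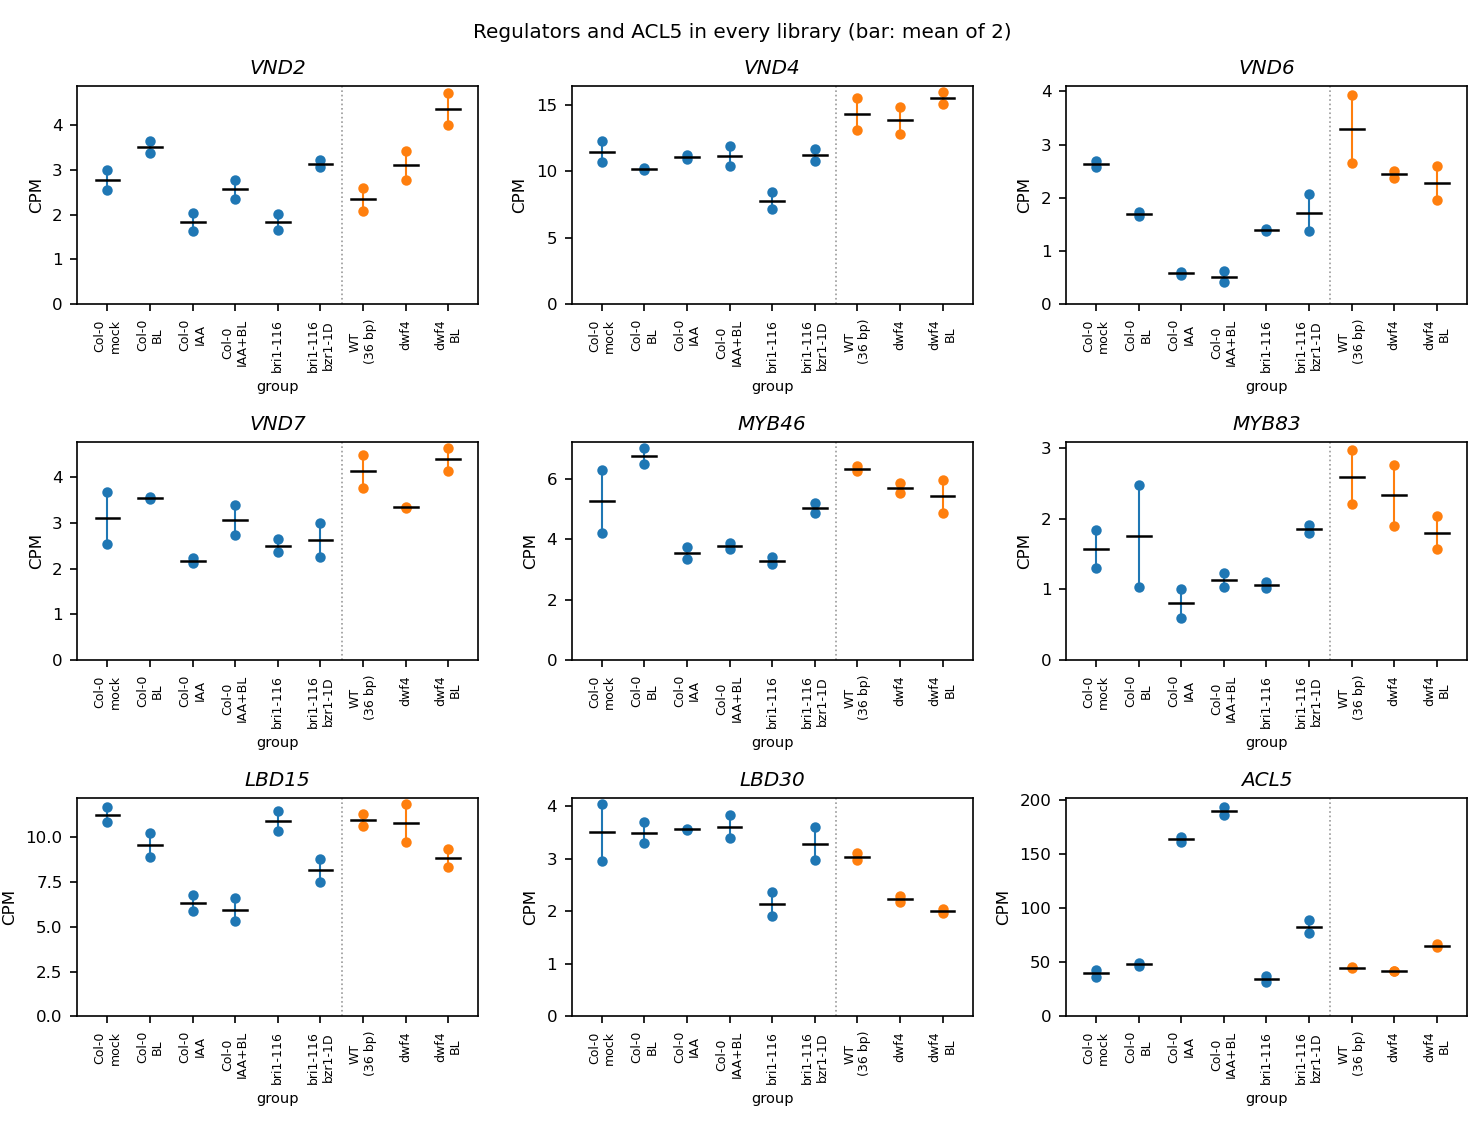
CPM (vertical axes, from 0) of 8 regulators and ACL5 in all 18 libraries (points) of the 9 groups, with a black bar at the mean of 2 libraries, blue for 101 bp and orange for 36 bp reads, which were scaled apart. VND6 is lowest and ACL5 highest in the 4 libraries that received IAA, and ACL5 is also raised in the double mutant and in dwf4 given BL.

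Wall genes were also lower in the synthesis mutant dwf4, without a called change in the regulators. In dwf4 against wild type 15 of 18 wall synthesis genes fell, including all 7 cellulose genes, and 3 of 4 cell death genes did. None of the 12 tested regulators was called, and no member rose. The 18 members called lower compare with 7.93% of all tested genes called lower, 4.79% called higher and 12.7% called in either direction (the same edgeR test over 19558 genes). Of all called genes 37.7% were higher, or 52.2% with counts scaled by library totals. The median log2 fold change was -0.46 over the 35 members and 0.0093 over all genes. The member count rests on both wild-type libraries: it was 11 without wild-type replicate 1 and 8 without wild-type replicate 2.

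The median wall synthesis gene stood at 68.6% of wild type, from 37.4% for FLA12 to 77.7% for IRX9. FLA12 measured 13.3 and 11.2 CPM in wild type and 4.83 and 4.35 in dwf4, a log2 fold change of -1.41 ± 0.15 (adjusted p = 0.00108), and was the lowest wall gene relative to its control in both mutants. CESA4 went from 92.9 and 99.2 to 63.0 and 68.9 CPM (-0.54 ± 0.074, adjusted p = 0.00274), with CESA7 at -0.52 ± 0.069 (adjusted p = 0.00238) and CESA8 at -0.53 ± 0.078 (adjusted p = 0.00391). The dwf4 libraries lay below both wild-type libraries for all 18 wall genes. How many of all tested genes were separated in this way was not counted. IRX15 (-0.93 ± 0.16, adjusted p = 0.00873), CTL2 (-0.82 ± 0.090, adjusted p = 0.00110) and FLA11 (-0.78 ± 0.097, adjusted p = 0.00187) followed FLA12 in size. IRX9 (-0.37 ± 0.11, adjusted p = 0.0617), IRX8 (-0.53 ± 0.15, adjusted p = 0.0507) and GUX1 (-0.46 ± 0.13, adjusted p = 0.0583) were the 3 that did not pass.
XCP2 measured 144 and 154 CPM in wild type and 93.0 and 97.7 in dwf4 (-0.64 ± 0.061, adjusted p = 0.000592), XCP1 gave -0.54 ± 0.060 (adjusted p = 0.00113) and MC9 -0.39 ± 0.091 (adjusted p = 0.0263), while BFN1 did not pass (-0.25 ± 0.11, adjusted p = 0.174). The MC9 call was lost without wild-type replicate 1 (-0.46), wild-type replicate 2 (-0.31) or dwf4 replicate 1 (-0.30). CESA4 and CESA8 were among the wall genes whose calls were lost without wild-type replicate 2, each at -0.50.

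Regulator values in dwf4 ranged from -0.44 ± 0.22 (adjusted p = 0.233) for LBD30 to 0.39 ± 0.24 (adjusted p = 0.341) for VND2. VND6 measured 3.93 and 2.66 CPM in wild type and 2.37 and 2.51 in dwf4, and VND7 went from 4.49 and 3.76 to 3.32 and 3.35. Standard errors of the log2 fold changes were 0.13 to 0.34 for the regulators and 0.064 to 0.16 for the wall synthesis genes, so a change of the size seen in the wall genes was less detectable in the regulators at this depth. At an unadjusted p under 0.05 there were 22 of all 35 tested members in this comparison, including the 18 called lower. The share of all tested genes at that level was not counted. DESeq2 and each library left out in turn called none of the 12 either. Outside the 37, 1 of 15 tested secondary wall transcription factors fell (KNAT7, -0.42 ± 0.090 (adjusted p = 0.0180)) and 1 rose (MYB20, 0.75 ± 0.15 (adjusted p = 0.0162)), and 3 of 13 further wall synthesis genes fell, with LAC11 at -0.49 ± 0.066 (adjusted p = 0.00256). Endodermis markers summed to 280 to 287 CPM in wild type and 221 to 241 in dwf4, and phloem markers to 77.1 to 84.2 and 56.1 to 59.7. Cambium and procambium markers summed to 38.4 to 40.2 and 27.5 to 32.4, and green shoot markers to 7.20 to 9.93 and 17.0 to 19.8. Markers within a list did not all move together. Of the endodermis markers, CASP1 went from 143 and 146 to 88.2 and 101 CPM, but SCR from 57.8 and 63.1 to 75.6 and 76.2. The phloem marker SUC2 went from 34.5 and 37.2 to 20.5 and 17.9 CPM, while NAC045 and NAC086 overlapped between the groups. PXY went from 35.3 and 37.6 to 28.7 and 25.1 CPM, while WOX4 overlapped. The part of these lists was not tested.

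The 2 brassinosteroid mutants share no library, so their values can be set side by side. All 18 members lower in dwf4 were also lower in bri1-116, which is 66.7% of the 27 lower there. Over all genes tested in both sets the shares were 73.9% of the genes lower in dwf4 and 29.0% of those lower in bri1-116. Across the 35 members the log2 fold changes correlated with r = 0.713, and across 19502 genes with r = 0.572, given as descriptions, since genes of 1 library share its cells and scaling. No test of a difference between the mutants was run, as they differ in read length and in the treatment of their controls.

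**Figure D4:**
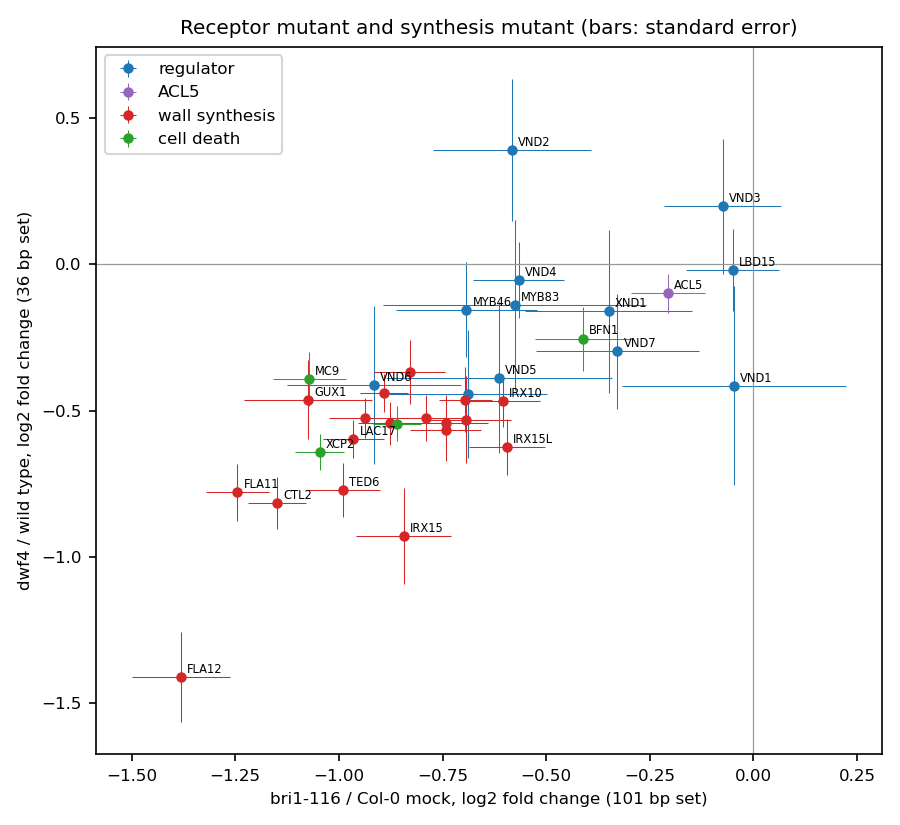
Log2 fold change of the 35 tested genes in bri1-116 against Col-0 mock (horizontal) and in dwf4 against wild type (vertical), with bars for 1 standard error and colours for the roles. Crowded points in the middle carry no name. FLA12 is the lowest point on both axes, the wall synthesis genes lie below 0 on both, and the regulators lie between -0.44 and 0.39 on the vertical axis.

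After a 4 h treatment with BL few of these genes were called in either background. In Col-0, CESA8 was called higher (0.34 ± 0.092, adjusted p = 0.0222) and nothing lower, 1 of 35 against 13.0% of all tested genes called, 6.37% higher and 6.59% lower. CESA8 measured 32.7 and 38.3 CPM in mock and 45.2 and 44.8 with BL, and the BL libraries lay above both mock libraries. Of the 18 wall synthesis genes 16 had a positive log2 fold change, with a median of 0.13 against -0.0042 over all tested genes, and their summed CPM was 629 and 654 in mock and 685 and 728 with BL. Examples short of the threshold were CESA7 (0.22 ± 0.086, adjusted p = 0.105), COBL4 (0.23 ± 0.085, adjusted p = 0.0919) and MC9 (0.21 ± 0.085, adjusted p = 0.120). VND6 gave -0.64 ± 0.23 (adjusted p = 0.0731), from 2.70 and 2.58 to 1.67 and 1.73 CPM. The call depends on single libraries: leaving out mock replicate 1 or BL replicate 2 gave 0 members, leaving out mock replicate 2 gave 5, and CESA8 was also lost without BL replicate 1 (adjusted p = 0.0933).

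In dwf4 given BL, ACL5 and BFN1 were higher than in untreated dwf4, a comparison in which BL cannot be told apart from handling. They were 2 of 35 members, against 13.3% of all tested genes called, 7.86% higher and 5.45% lower. ACL5 measured 41.6 and 41.8 CPM without and 63.8 and 66.4 CPM with BL (0.64 ± 0.065, adjusted p = 0.000569). BFN1 went from 10.8 and 11.1 to 14.7 and 14.2 CPM (0.40 ± 0.11, adjusted p = 0.0457), and its call was lost when any 1 of the 4 libraries was left out, with ACL5 then the 1 remaining. No wall synthesis gene passed. CESA4 gave 0.13 ± 0.075 (adjusted p = 0.315), FLA12 0.29 ± 0.17 (adjusted p = 0.305) and GUX1 0.48 ± 0.13 (adjusted p = 0.0519). Their sum was 745 and 778 CPM in wild type, 509 and 512 in dwf4 and 544 and 547 in dwf4 with BL.

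After 4 h of BL the dwf4 roots were below wild type for 16 of 18 wall synthesis genes and 3 of 4 cell death genes, within 19 members lower and 2 higher against 18.8% of all tested genes called, 9.63% higher and 9.16% lower. DESeq2 called 12 of the wall synthesis genes and 3 of the cell death genes. With any 1 library left out, fewer of both were called than in the main fit. FLA12 gave -1.12 ± 0.15 (adjusted p = 0.00176) and CTL2 -0.75 ± 0.089 (adjusted p = 0.00106). The 2 higher were ACL5 (0.54 ± 0.064, adjusted p = 0.00105) and VND2 (0.88 ± 0.23, adjusted p = 0.0291), the latter at 2.08 and 2.59 CPM in wild type and 4.72 and 4.00 in treated dwf4. The VND2 call was lost in DESeq2 (adjusted p = 0.159) and when any 1 of the 4 libraries was left out (adjusted p = 0.0589 to 0.182). The median wall synthesis gene stood at 70.8% of wild type. Without wild-type replicate 1 the count was 10, without wild-type replicate 2 it was 7. The comparisons of dwf4 with and without BL against wild type share the wild-type libraries.

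Whether BL acted differently in the 2 backgrounds was tested directly. None of the 35 members passed in the difference between the BL responses of dwf4 and Col-0, where 0.937% of 20393 genes did, 0.633% higher and 0.304% lower. At an unadjusted p under 0.05, a share not counted over all tested genes, there was 1, ACL5, higher in dwf4 by 0.37 ± 0.13 (adjusted p = 0.229). DESeq2 also called 0. The BL response was tied to handling in dwf4 and not in Col-0.
MAP70-5 and F8H, a glycosyltransferase of xylan, are wall-related genes outside the 37 that rose with BL in both: MAP70-5 by 0.48 ± 0.077 (adjusted p = 0.000745) in Col-0 and 0.57 ± 0.087 (adjusted p = 0.00395) in dwf4, and F8H by 0.37 ± 0.083 (adjusted p = 0.00780) and 0.60 ± 0.074 (adjusted p = 0.00150).

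Auxin gave the largest changes of single members, while the share of members called was close to that of all genes. IAA against mock called 19 of 35 members (54.3%), 1 higher and 18 lower, while 59.3% of all tested genes were called, 29.9% higher and 29.3% lower. The median was -0.22 over the members and 0.0018 over all genes. Without IAA replicate 2 the members called were 10.
ACL5 rose from 35.9 and 43.2 CPM in mock to 166 and 161 with IAA and 194 and 186 with both hormones, with no overlap between treated and mock libraries. The log2 fold changes were 2.04 ± 0.085 (adjusted p = 3.62e-12) and 2.26 ± 0.085 (adjusted p = 1.30e-12).

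VND6 moved the other way. It fell from 2.70 and 2.58 CPM to 0.614 and 0.542 with IAA and 0.410 and 0.623 with both, at -2.15 ± 0.25 (adjusted p = 1.51e-06) and -2.40 ± 0.29 (adjusted p = 2.51e-06), the 4 treated libraries all below the 2 mock libraries. MYB83 (-0.87 ± 0.33, adjusted p = 0.0329), LBD15 (-0.86 ± 0.12, adjusted p = 1.44e-05), MYB46 (-0.61 ± 0.17, adjusted p = 0.00605), VND2 (-0.54 ± 0.19, adjusted p = 0.0230) and VND7 (-0.54 ± 0.20, adjusted p = 0.0324) were the other regulators called lower with IAA. Of these, VND2, VND7 and MYB83 were not called by DESeq2 (adjusted p = 0.120, 0.145 and 0.0913), and MYB46 was lost without mock replicate 2 (adjusted p = 0.229) or IAA replicate 1 (adjusted p = 0.0929). VND4, the most abundant VND gene, gave -0.057 ± 0.11 (adjusted p = 0.663).

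Wall genes with IAA spread widely, with 9 of 18 lower and none higher. FRA8 fell from 68.2 and 64.3 CPM to 25.6 and 23.8 (-1.41 ± 0.068, adjusted p = 2.75e-11), and FLA12 from 13.6 and 13.4 to 7.25 and 6.02 (-0.99 ± 0.11, adjusted p = 1.27e-06), and neither overlapped its mock libraries. FLA11 (-0.49 ± 0.072, adjusted p = 1.71e-05), IRX9 (-0.37 ± 0.083, adjusted p = 0.00112) and CTL2 (-0.35 ± 0.067, adjusted p = 0.000266) also fell. IRX10 (-0.0082 ± 0.086, adjusted p = 0.943) and LAC17 (-0.032 ± 0.070, adjusted p = 0.710) did not pass. The 3 cell death genes called lower were XCP2 (-0.22 ± 0.058, adjusted p = 0.00356), MC9 (-0.31 ± 0.085, adjusted p = 0.00497) and BFN1 (-0.31 ± 0.12, adjusted p = 0.0304). These 3 calls rest on IAA replicate 2, without which none passed (adjusted p = 0.0652, 0.0618 and 0.185). Without mock replicate 1, MC9 (adjusted p = 0.0763) and BFN1 (adjusted p = 0.167) were lost, and DESeq2 lost BFN1 (adjusted p = 0.0894).
Markers of lateral root initiation (LBD16, LBD29 and GATA23) summed to 315 to 317 CPM with IAA and 14.8 to 15.6 in mock, all 3 called higher; LBD18, a LOB-domain factor of both xylem and lateral roots, went from 3.37 and 3.09 to 104 and 99.9 CPM (4.99 ± 0.11, adjusted p = 1.94e-15). The 2 cambium and procambium markers summed to 29.8 to 30.05 CPM in mock and 12.7 to 13.2 with IAA, both called lower. The 5 endodermis markers summed to 441 to 469 and 314 to 354, with 3 called lower, the 3 root hair markers to 121 to 129 and 71.1 to 71.8, all called lower, and the 3 green shoot markers to 13.5 to 17.0 and 4.39 to 5.55, all called lower. The part of these lists in the xylem values was not tested.
Of 10 tested genes upstream of the NAC switches 5 rose with IAA and none fell, REV, an HD-ZIP III factor of vascular patterning, by 0.50 ± 0.065 (adjusted p = 4.40e-06).

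BL added to IAA changed 1 member, FRA8, from 25.6 and 23.8 to 30.7 and 32.6 CPM (0.34 ± 0.075, adjusted p = 0.00758), against 10.5% of all tested genes called, 5.40% higher and 5.13% lower. Higher calls were 51.3% of all calls, or 69.0% with library totals. That call was lost without IAA replicate 2 or without replicate 2 of the combined treatment. With both hormones against mock 15 of 35 members were called, 14 lower and 1 higher, against 52.0% of all genes, 26.0% higher and 26.1% lower. Without mock replicate 2 the members called were 8. IAA, BL and their combination share the mock libraries.
The test of the interaction, whether BL acts differently with IAA, called 0 of 35 members against 1.44% of all genes, 0.606% positive and 0.838% negative. Positive calls were 41.9% of all calls, or 58.8% with library totals. At an unadjusted p under 0.05, a share not counted over all tested genes, there were 5, led by IRX15L (-0.47 ± 0.13, adjusted p = 0.105). DESeq2 called 0, and edgeR without the low-count filter called 3, CESA7, CESA8 and IRX15L.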

How the data were processed

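RNA was sequenced from root tip sections in 18 libraries, 2 for each of 9 groups. The authors deposited whole-number read counts per locus for each library, not normalized, for 33602 loci. A further 5 closing lines hold reads assigned to no gene (5.87% to 7.25% at 101 bp, 10.9% to 12.0% at 36 bp), which were left out. Reads aligned to more than 1 place are among them, so these percentages are not shares of reads lying outside genes. The tools named in the submitters' processing notes are Bowtie, HTSeq and TopHat 1.4.0, with TAIR10 as build; the annotation release and strand setting were not given in the sources used here. Symbols, exon lengths, promoter coordinates and sequences came from RefSeq TAIR10.1, with loci matched by identifier; no coordinate from the count tables was used.

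Counts were fitted with edgeR 4.0.16 in R 4.3.3 (TMM, filterByExpr minimum count 10 and minimum total 15, 1 coefficient per group, quasi-likelihood F test, Benjamini-Hochberg adjustment over all tested genes at 0.05, prior count 0.125), with the 101 bp set (12 libraries) and the 36 bp set (6) apart, and all 18 together only for the difference between BL responses. CPM used the TMM-scaled library size. The script was tested on simulated data. All 37 members may be named, and from each other list the called genes with the smallest adjusted p, at most 4 per comparison. Members and lists were chosen with earlier results of these data known. Alternatives were DESeq2 1.42.0, other scalings, no filter, other sets of libraries, a replicate block and each library left out.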

Additional observations from a re-analysis of the deposited data

Results flagged for a closer look

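GXM2, a glucuronoxylan methyltransferase from the list of further wall synthesis genes outside the 37, was the 1 wall-related gene with a called difference between its BL responses without and with IAA. The interaction had a log2 value of -0.88 ± 0.13 (SE; edgeR's quasi-likelihood test, adjusted p = 0.00214). GXM2 measured 38.4 and 38.3 CPM in mock, 51.4 and 47.6 with BL, 10.3 and 9.57 with IAA and 6.64 and 7.69 with both hormones. BL thus went with a higher level without IAA (0.37 ± 0.072, adjusted p = 0.00277) and a lower level with IAA (-0.50 ± 0.11, adjusted p = 0.00885). With 2 libraries per group no test for outlying libraries was run.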

How the results depend on the processing

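Of 4892 gene values recomputed under the alternatives for the members and comparisons, 4663 kept direction and side of the threshold, 167 lost and 62 gained a call, and 0 reversed; the cause of each change was not tested. Beside the member counts in the text, BL in Col-0 (1) gave 2 with RLE size factors, 4 without the low-count filter, 2 in DESeq2 and 2 with all 18 libraries. BL with IAA present (1) gave 3 with library totals, 3 without the filter and 2 with only the 4 libraries compared. The interaction (0) gave 3 without the filter. The double mutant against Col-0 (3) gave 7 without the filter and 1 in DESeq2. BL in dwf4 (2) gave 1 with library totals, 1 with the replicate block, 1 in DESeq2, 1 with only the 4 libraries compared and 1 with crossed replicate numbers, a setting chosen after seeing the data. The difference between BL responses (0) gave 1 without the filter. Leaving out 1 library gave 0 to 5 for BL in Col-0, 10 to 19 for IAA, 8 to 13 for IAA plus BL, 0 to 1 for BL with IAA present, 0 to 1 for the interaction, 25 to 27 for bri1-116, 22 to 25 for bzr1-1D in bri1-116, 1 to 3 for the double mutant, 8 to 18 for dwf4, 1 to 1 for BL in dwf4, 7 to 14 for BL-treated dwf4 and 0 to 1 for the difference between BL responses.

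Replicate numbers share no stated origin. Deviations of same-numbered libraries correlated at -0.175 to 0.166 in the 101 bp set and -0.176 to 0.0293 in the 36 bp set, so the numbers were not taken to pair libraries; the replicate block gave 1, 19, 14, 1 and 0 members called for BL, IAA, both hormones, BL with IAA and the interaction. Over all tested genes the called number moved by over 1.5 times in several settings: dwf4 against wild type called 2487 genes and 563 without wild-type replicate 2, BL-treated dwf4 3674 and 1028 without wild-type replicate 1, and BL in Col-0 2675 and 1165 without mock replicate 1. Depth limits the regulators most, since VND1, VND5 and MYB83 averaged under 3 CPM.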
